A study of Rattus norvegicus with 18 samples.

Results

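Reg3b, Reg3g, Pla2g2a, Pla2g7, Il6st, Lifr, Osmr, Stat3 and Socs3 are the 9 genes described here, of 17312 in the deposited table, and they were found by symbol. The list was chosen by the SR9009 differences of the first 4, whose levels stood far from vehicle, so the SR9009 differences of those 4 are given only as a description. The other 5 genes belong to the gp130 pathway and were listed with them. The cells were neonatal rat ventricular myocytes, prepared from hearts of 2-day-old Sprague-Dawley rats, and all 6 groups were kept without serum before treatment. Each culture received vehicle or SR9009, an agonist of the REV-ERB nuclear receptors, for 24 h. Phenylephrine (PE), which activates α1-adrenergic receptors and makes cultured cardiomyocytes enlarge, was then given for 0, 4 or 48 h. The 6 groups were therefore vehicle at 0, 4 and 48 h and SR9009 at 0, 4 and 48 h, with 3 libraries each and 18 in all. Every group measured at 4 or 48 h had received PE, and the effects of PE and of longer culture cannot be told apart. The labels do not say whether the 3 libraries of a group came from separate cell isolations.

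gp130, the product of Il6st, is the signalling subunit shared by the receptors of interleukin 6, leukaemia inhibitory factor (LIF), oncostatin M and related cytokines. LIF pairs gp130 with the LIF receptor (Lifr), and oncostatin M pairs it with the oncostatin M receptor (Osmr). The paired receptors activate JAK kinases, which phosphorylate the transcription factor STAT3. STAT3 induces Socs3, whose product blocks the receptor and so closes the loop. In the heart this pathway is known for protecting myocytes under stress and for cardiomyocyte dedifferentiation. REG3β and REG3γ are small secreted C-type lectins of the acute phase response, known from the gut and pancreas. REG3β is also made by cardiomyocytes under oncostatin M and attracts macrophages to the injured heart. Pla2g2a encodes the group IIA secretory phospholipase A2, an acute phase enzyme that releases fatty acids from phospholipids and kills bacteria. Pla2g7 encodes the lipoprotein-associated phospholipase A2, which inactivates platelet activating factor and is abundant in macrophages.

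The bases before the start of 4 of these genes are shown because they hold, or align with, a match to one of 4 motifs searched in all 9. Windows of 250 bases were taken from RefSeq on build GRCr8, and all 9 genes were matched by symbol. Capitals mark the motif match and, in Reg3g, the bases that align with the match in Reg3b. The windows are chr4:112419526-112419775 on the plus strand for Reg3b and, on the minus strand, chr4:112484739-112484988 for Reg3g, chr9:24901748-24901997 for Pla2g7 and chr2:57688562-57688811 for Osmr.
Reg3b: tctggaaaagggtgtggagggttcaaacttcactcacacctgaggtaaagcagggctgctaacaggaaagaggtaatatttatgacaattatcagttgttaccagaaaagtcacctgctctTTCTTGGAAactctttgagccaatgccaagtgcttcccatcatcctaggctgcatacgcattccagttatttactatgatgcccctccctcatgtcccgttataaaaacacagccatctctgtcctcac
Reg3g: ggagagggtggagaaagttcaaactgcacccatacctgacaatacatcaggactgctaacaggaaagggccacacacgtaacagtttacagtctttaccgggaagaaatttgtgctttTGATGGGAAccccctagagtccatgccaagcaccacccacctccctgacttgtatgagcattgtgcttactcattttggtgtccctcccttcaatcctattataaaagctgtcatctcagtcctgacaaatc
Pla2g7: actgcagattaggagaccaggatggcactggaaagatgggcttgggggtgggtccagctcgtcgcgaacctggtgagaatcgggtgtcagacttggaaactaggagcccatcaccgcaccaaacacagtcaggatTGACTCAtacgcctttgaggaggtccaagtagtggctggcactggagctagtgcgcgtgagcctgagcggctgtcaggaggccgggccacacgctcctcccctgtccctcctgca
Osmr: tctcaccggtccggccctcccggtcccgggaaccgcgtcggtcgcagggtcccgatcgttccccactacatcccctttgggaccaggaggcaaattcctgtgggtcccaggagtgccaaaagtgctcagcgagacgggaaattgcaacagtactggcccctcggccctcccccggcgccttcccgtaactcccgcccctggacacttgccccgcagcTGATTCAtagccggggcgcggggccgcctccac
Reg3b held TTCNNNGAA, the letters bound by STAT factors, from 129 to 121 bases before the start, as TTCTTGGAA. These letters occurred in 7.67% of the 33465 windows searched. The aligned bases of Reg3g, from 132 to 124 before its start, read TGATGGGAA, with 6 of 9 letters identical. The AP-1 letters TGANTCA, present in 6.34% of windows, occurred in Pla2g7 from 115 to 109 bases and in Osmr from 33 to 27 bases before the start. AGGTCA, the REV-ERB and ROR core site found in 14.1% of windows, and TTGCNNAA, the C/EBP letters found in 9.22%, occurred in 0 of the 9 genes. All 4 motifs were searched on both strands, TTCNNNGAA and TGANTCA read alike on both, and no matches overlapped. A match is a description of letters, and no match says only that these letters are not in this window. The Reg3b and Reg3g windows shared 165 identical bases when aligned with 20 gap bases. The other 35 pairs of the 9 genes shared 108 to 143 identical bases with 42 to 92 gap bases.

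Levels are given in FPKM (fragments per kilobase of transcript, scaled for library size in a way not given in the sources used here). There is 1 value per gene and group, which the authors made from the 3 libraries. Each value carries the authors' lower and upper bound, written in brackets, and no standard deviation, test or p-value could be had from 1 value. A difference is on the log2(FPKM + 1) scale, with the widest range that the bounds allow. It was called higher or lower where it was at least 1 in size and that range excluded 0, which is a rule of size and not a test. All 9 genes passed the filter of a mean of 1 FPKM over the groups, as did 10545 genes in all. The distance from the value to its bounds was 12.7% to 20.7% of the value for 7 of the 9 genes. They were wider for Pla2g2a, at 18.4% to 47.6%, and for Reg3g, at 25.3% to 86.0%. Reg3b was very abundant, the 5th highest of all genes with SR9009 at 0 h, whereas Reg3g never exceeded 10.2 FPKM.

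**Figure D1:**
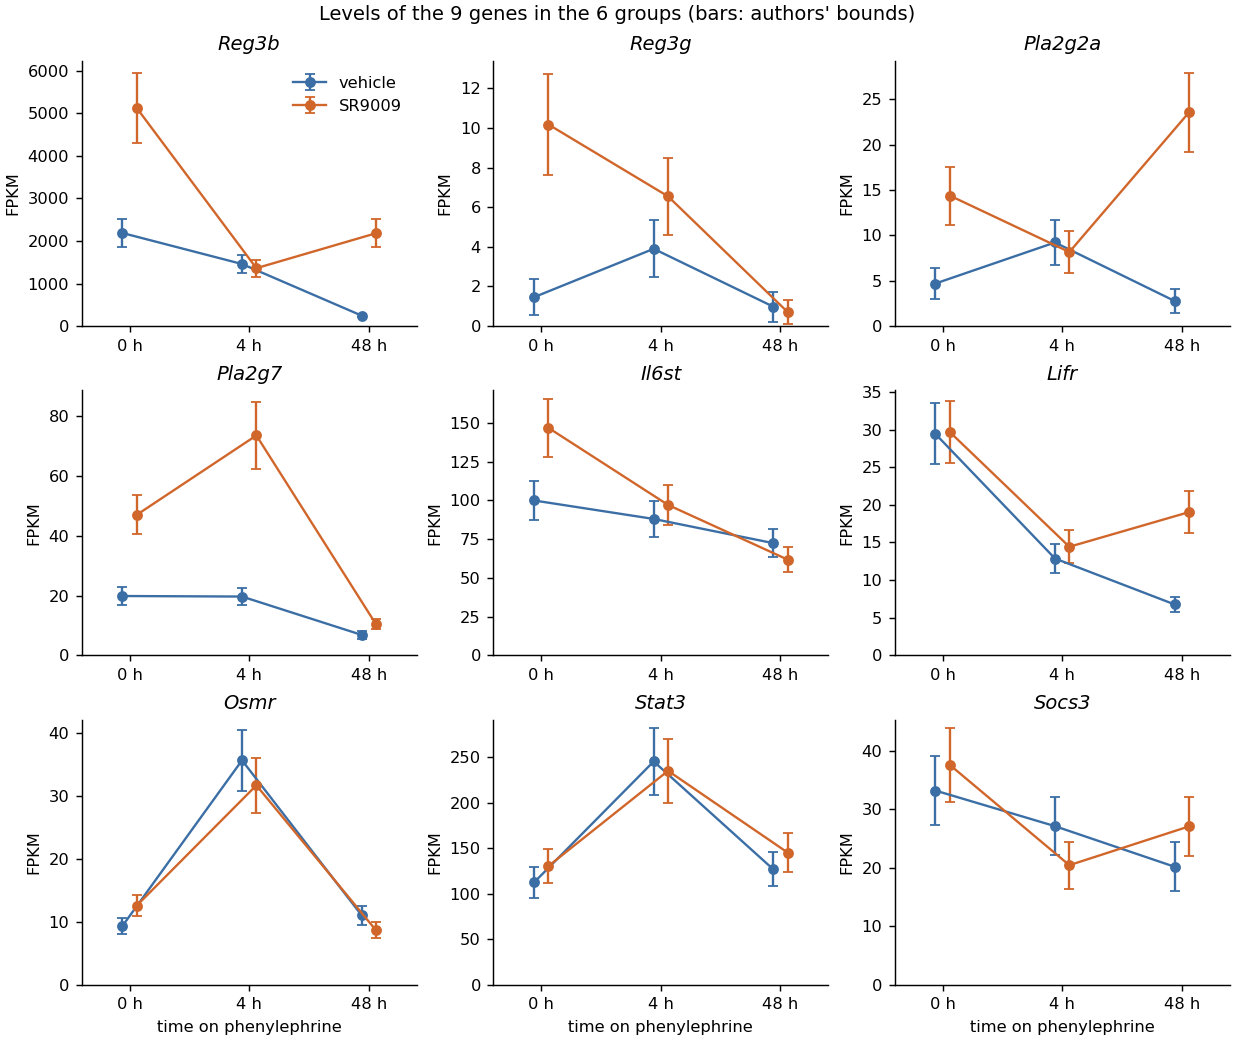
FPKM of each of the 9 genes (vertical axes, each with its own scale from 0) against time on phenylephrine for vehicle (blue) and SR9009 (orange). Points are the authors' group values and bars their bounds. The arms of Reg3b and Pla2g2a lie apart at 0 and 48 h and overlap at 4 h, those of Pla2g7 lie apart at all 3 times, and those of Stat3 and Socs3 overlap at every time.

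Il6st, the shared signal transducer, was among the more abundant of the 9 genes. It stood at 99.95 FPKM (87.1 to 112.8), 88.0 FPKM (76.4 to 99.7) and 72.4 FPKM (63.2 to 81.7) in vehicle at 0, 4 and 48 h. With SR9009 it stood at 146.8 FPKM (128.2 to 165.4), 97.1 FPKM (84.1 to 110.05) and 61.8 FPKM (53.7 to 69.9). The SR9009 group at 0 h was the highest and its bounds lay above those of the other 5 groups. The SR9009 difference at 0 h was 0.55 (0.18 to 0.92), a ratio of 1.47, which did not reach the size required. Over 48 h of PE the difference was -1.23 (-1.61 to -0.87) with SR9009, 2.38-fold lower, and -0.46 (-0.83 to -0.09) in vehicle. The interaction at 48 h, which is the PE difference with SR9009 minus that in vehicle, was -0.78 (-1.51 to -0.04) and was not called. Il6st lies on chromosome 2 from 44290075 to 44319427 (rn6).

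Lifr, the LIF receptor, was lower after PE in both arms, and at 48 h it was the gp130 receptor that stood highest with SR9009 relative to vehicle. In vehicle it stood at 29.4 FPKM (25.4 to 33.5) at 0 h, 12.9 FPKM (10.9 to 14.8) at 4 h and 6.77 FPKM (5.72 to 7.82) at 48 h. With SR9009 it stood at 29.7 FPKM (25.6 to 33.8), 14.4 FPKM (12.3 to 16.6) and 19.0 FPKM (16.2 to 21.8). The arms overlapped at 0 and 4 h, and the 48 h groups lay apart. The SR9009 difference was 0.01 at 0 h, 0.15 at 4 h and 1.37 (0.96 to 1.77) at 48 h, a ratio of 2.81. The last ranked 91 from the highest of 10408 genes. At 48 h of PE the vehicle value was 4.35-fold lower than at 0 h, a difference of -1.97 (-2.36 to -1.58), while the SR9009 arm differed by -0.62 (-1.02 to -0.22). The interaction at 48 h was 1.35 (0.56 to 2.14). At 4 h of PE the difference was -1.13 (-1.53 to -0.74) in vehicle, which was not called with a pseudocount of 5 (-0.95), and -0.99 (-1.39 to -0.59) with SR9009. Lifr lies on chromosome 2 from 56436726 to 56487589 (rn6).

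Osmr, the oncostatin M receptor, was high at 4 h of PE in both arms. It stood at 9.34 FPKM (8.03 to 10.6), 35.6 FPKM (30.8 to 40.4) and 11.0 FPKM (9.52 to 12.5) in vehicle at 0, 4 and 48 h. With SR9009 the values were 12.6 FPKM (10.9 to 14.3), 31.7 FPKM (27.3 to 36.0) and 8.65 FPKM (7.38 to 9.92). The 4 h groups lay above the other 4 groups, and the remaining neighbours in the order of levels overlapped. The 4 h difference was 1.83 (1.45 to 2.20) in vehicle, a ratio of 3.82, and 1.27 (0.89 to 1.64) with SR9009, a ratio of 2.52. SR9009 differences were 0.39 (0.03 to 0.76) at 0 h, -0.17 at 4 h and -0.32 (-0.69 to 0.05) at 48 h, none of them called. Osmr lies on chromosome 2 from 56110777 to 56151531 (rn6), 285194 bases from Lifr with no other gene of the table between them. The 2 receptors stood in opposite directions at 4 h of PE in vehicle, Osmr higher and Lifr lower.

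Stat3, the transcription factor of the pathway, was highest at 4 h of PE in both arms, as was Osmr. It stood at 112.4 FPKM (95.8 to 129.0), 245.2 FPKM (208.7 to 281.7) and 126.7 FPKM (107.9 to 145.5) in vehicle at 0, 4 and 48 h. Under SR9009 it stood at 130.3 FPKM (111.2 to 149.5), 234.9 FPKM (199.6 to 270.1) and 145.1 FPKM (123.7 to 166.6). Both 4 h groups lay above the other 4 groups, and the arms overlapped at each time. The 4 h difference in vehicle was 1.12 (0.69 to 1.55), a ratio of 2.18. It was 0.92 with FPKM rescaled to equal sums and 0.89 with quantile normalization, and so was not called under either. With SR9009 the 4 h difference was 0.84 (0.41 to 1.27). SR9009 differences were 0.21, -0.06 and 0.19 at 0, 4 and 48 h. Stat3 lies on chromosome 10 from 88790406 to 88842233 (rn6), 1346 bases from Stat5a. Stat5a, a related transcription factor, stood between 2.88 and 7.40 FPKM.

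Socs3, the feedback inhibitor that STAT3 induces, varied the least of the 9 genes. It stood at 33.2 FPKM (27.3 to 39.1), 27.1 FPKM (22.1 to 32.1) and 20.2 FPKM (16.0 to 24.3) in vehicle at 0, 4 and 48 h. In the SR9009 arm it stood at 37.6 FPKM (31.3 to 43.9), 20.4 FPKM (16.4 to 24.5) and 27.1 FPKM (22.0 to 32.1). Its highest group was 1.86 times its lowest. Every pair of neighbours in the order of levels overlapped, while the bounds of the highest and lowest group lay apart. None of its 9 differences was called. The SR9009 differences were 0.17 at 0 h, -0.39 (-0.93 to 0.14) at 4 h and 0.41 (-0.14 to 0.96) at 48 h. At 4 h of PE both Osmr and Stat3 were at their highest. Socs3 then differed by -0.28 (-0.79 to 0.22) in vehicle and by -0.85 (-1.37 to -0.34) with SR9009. At 48 h of PE it differed by -0.69 (-1.24 to -0.16) in vehicle and by -0.46 (-0.96 to 0.04) with SR9009. The table's locus for Socs3, on chromosome 10 from 106975178 to 106976040 (rn6), spans 863 bases.

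Reg3b showed the widest spread of levels, 20.8-fold between its highest and lowest group. It stood at 2187 FPKM (1861 to 2512), 1458 FPKM (1240 to 1676) and 246.4 FPKM (209.7 to 283.1) in vehicle at 0, 4 and 48 h. With SR9009 it stood at 5122 FPKM (4306 to 5938), 1360 FPKM (1156 to 1564) and 2181 FPKM (1852 to 2510). The SR9009 group at 0 h lay above all others and the vehicle group at 48 h below all others, while the arms overlapped at 4 h. Reg3b made up 0.836% of the summed FPKM with SR9009 at 0 h and 0.0347% in vehicle at 48 h. The SR9009 difference was 1.23 (0.78 to 1.67) at 0 h, -0.10 (-0.54 to 0.33) at 4 h and 3.14 (2.71 to 3.57) at 48 h. The ratio at 48 h was 8.85 (6.54 to 12.0), the 3rd highest difference of 10408 genes. The SR9009 arm was 3.77-fold lower at 4 h than at 0 h, a difference of -1.91 (-2.36 to -1.46), and its 48 h value lay above its 4 h value. In vehicle the 48 h value was 8.87-fold lower than at 0 h, a difference of -3.14 (-3.58 to -2.71), the 3rd lowest of 10416 genes. The interaction was -1.33 (-2.21 to -0.44) at 4 h and 1.91 (1.03 to 2.80) at 48 h, so its sign differed between the times. Reg3b lies on chromosome 4 from 109467272 to 109470510 (rn6).

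Reg3g, the close relative of Reg3b, was present at a small share of the Reg3b level and took another course. It stood at 1.46 FPKM (0.560 to 2.36), 3.90 FPKM (2.47 to 5.34) and 0.981 FPKM (0.223 to 1.74) in vehicle at 0, 4 and 48 h. The SR9009 groups stood at 10.2 FPKM (7.61 to 12.7), 6.55 FPKM (4.61 to 8.49) and 0.710 FPKM (0.0995 to 1.32). The arms lay apart at 0 h and overlapped at 4 and 48 h. The SR9009 difference was 2.18 (1.36 to 3.14) at 0 h, a ratio of 6.97 (3.22 to 22.8), then 0.62 (-0.18 to 1.45) at 4 h and -0.21 (-1.32 to 0.92) at 48 h. Over 48 h of PE with SR9009 it was 14.3-fold lower (5.76 to 128), a difference of -2.71 (-3.64 to -1.89), the 3rd lowest of 10409 genes. The interaction at 48 h was -2.40 (-4.46 to -0.43), opposite in sign to that of Reg3b, and with a pseudocount of 0.1 its range reached from -7.49 to 0.49 and it was not called. Reg3g lies on chromosome 4 from 109529679 to 109532234 (rn6), 59168 bases from Reg3b, with Reg3a and Reg1a between them. REG genes resemble each other in sequence, and reads of the abundant Reg3b could be counted to Reg3g, or those of one secretory phospholipase to another, so low values in these families are uncertain. Reg1a stood between 1.79 and 5.05 FPKM and Reg3a under 1 FPKM on average. Extl3, proposed as a receptor for REG proteins, stood between 26.8 and 36.1 FPKM.

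Pla2g2a, the group IIA secretory enzyme, was higher with SR9009 at 0 and 48 h but not at 4 h, as was Reg3b. It stood at 4.70 FPKM (2.95 to 6.45), 9.22 FPKM (6.77 to 11.7) and 2.77 FPKM (1.45 to 4.09) in vehicle at 0, 4 and 48 h. In the SR9009 arm the values were 14.4 FPKM (11.2 to 17.6), 8.17 FPKM (5.82 to 10.5) and 23.6 FPKM (19.2 to 27.9). The SR9009 group at 48 h lay above the other 5. The SR9009 difference was 1.43 (0.71 to 2.24) at 0 h, a ratio of 3.07, and -0.16 at 4 h. At 48 h it was 2.70 (1.99 to 3.56), a ratio of 8.50 (4.70 to 19.2) and the 5th highest of 10408 genes. Unlike Reg3b, its level at 48 h with SR9009 lay above that at 0 h, by 0.67 (0.12 to 1.25). The interaction was -1.59 (-3.13 to -0.14) at 4 h and 1.27 (-0.25 to 2.85) at 48 h, the latter not called. Pla2g2a lies on chromosome 5 from 157282718 to 157285294 (rn6). Its neighbour Pla2g5, 13814 bases away, encodes another secretory phospholipase A2. Pla2g5 stood at 55.3, 47.1 and 51.9 FPKM in vehicle and at 39.8, 23.9 and 87.7 FPKM with SR9009 at 0, 4 and 48 h. None of its SR9009 differences was called, and its interaction at 48 h was 1.21 (0.37 to 2.05).

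Pla2g7, the lipoprotein-associated enzyme, was the only one of the 9 genes called higher with SR9009 at 4 h of PE. It stood at 19.9 FPKM (16.8 to 22.9), 19.7 FPKM (16.8 to 22.6) and 6.87 FPKM (5.56 to 8.18) in vehicle at 0, 4 and 48 h. The SR9009 groups stood at 47.1 FPKM (40.6 to 53.6), 73.6 FPKM (62.5 to 84.8) and 10.4 FPKM (8.75 to 12.1). The SR9009 group lay above the vehicle group at each time. The SR9009 difference was 1.20 (0.80 to 1.61) at 0 h, 1.85 (1.43 to 2.27) at 4 h, a ratio of 3.74, and 0.54 (0.09 to 1.00) at 48 h, the last not called. The 48 h value was lower than the 0 h value in both arms, by -1.41 (-1.87 to -0.96) in vehicle and -2.07 (-2.48 to -1.66) with SR9009. The interaction was 0.65 at 4 h and -0.66 at 48 h, neither called. Pla2g7 lies on chromosome 9 from 19935754 to 19978013 (rn6).

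**Figure D2:**
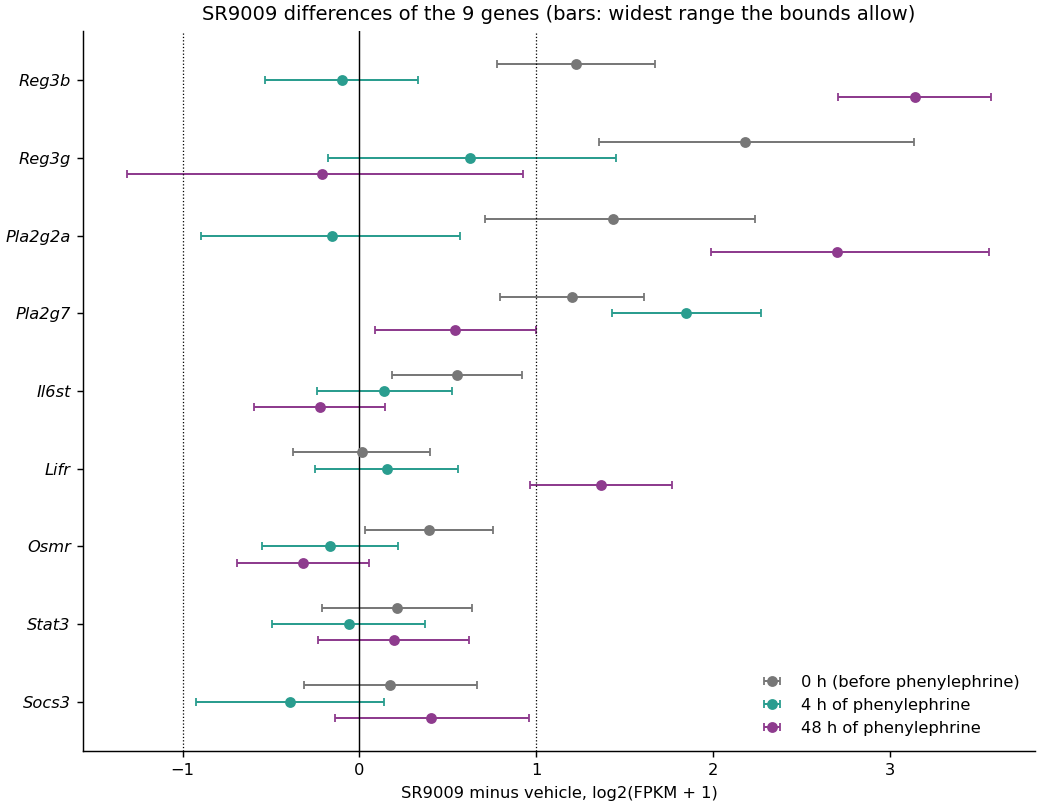
SR9009 minus vehicle on the log2(FPKM + 1) scale (horizontal axis) for each of the 9 genes at 0, 4 and 48 h of phenylephrine, with dotted lines at -1 and 1. Points are differences and bars the widest range given by the bounds. Reg3b and Pla2g2a reach 3.14 and 2.70 at 48 h and lie near 0 at 4 h, whereas Pla2g7 is highest at 4 h with 1.85.

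Counted by the size rule, 4 of the 9 genes were higher with SR9009 at 0 h (Reg3b, Reg3g, Pla2g2a and Pla2g7), where 0.499% of all genes tested were, and 0 were lower, against 0.566%. At 4 h 1 was higher (Pla2g7), against 0.499% of all genes, and 0 were lower, against 1.05%. At 48 h 3 were higher (Reg3b, Pla2g2a and Lifr), against 2.33%, and 0 were lower, against 4.55%. Nothing is read from these counts for the 4 genes that were listed for their SR9009 difference. Of the 5 gp130 genes, Lifr at 48 h was the only call with SR9009. In vehicle at 4 h of PE, 2 of the 9 were higher (Osmr and Stat3), against 2.75% of all genes, and 1 was lower (Lifr), against 2.32%. In vehicle at 48 h 3 were lower (Reg3b, Pla2g7 and Lifr), against 3.96%, and 0 higher, against 4.87%. With SR9009, 1 was higher (Osmr) and 1 lower (Reg3b) at 4 h, against 1.83% and 2.65%. At 48 h with SR9009 4 were lower (Reg3b, Reg3g, Pla2g7 and Il6st), against 1.16%, and 0 higher, against 1.26%. The interaction at 4 h was lower for 2 (Reg3b and Pla2g2a), against 0.346%, and higher for 0, against 0.077%. At 48 h it was higher for 2 (Reg3b and Lifr), against 3.71%, and lower for 1 (Reg3g), against 5.34%. The 4 h and 48 h comparisons of an arm share its 0 h group, and the interactions share all their groups with the other comparisons, so these counts are not independent. The interaction is also a difference between 2 SR9009 differences, so nothing is read from its counts for the 4 genes listed for those. The median difference of the 9 genes over 48 h of PE was -0.60 in vehicle and -0.62 with SR9009, beside 0.01 and -0.03 over all genes tested. The PE differences use the same group values as the SR9009 differences for which Reg3b, Reg3g, Pla2g2a and Pla2g7 were listed. Nothing is therefore read from the PE counts for those 4 genes, or from the medians that include them.

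**Figure D3:**
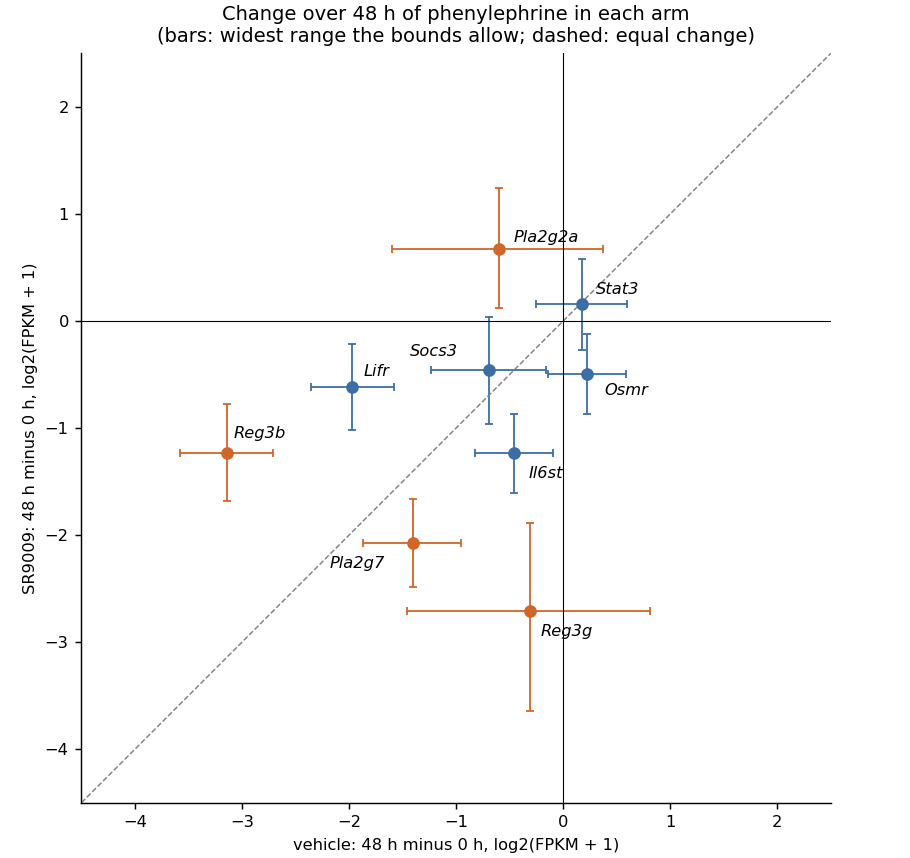
Difference between 48 h and 0 h of phenylephrine on the log2(FPKM + 1) scale in vehicle (horizontal axis) and with SR9009 (vertical axis) for the 9 genes, orange for the REG3 and phospholipase genes and blue for the gp130 genes. Bars are the widest ranges given by the authors' bounds and the dashed line marks equal differences. Reg3b (-3.14 and -1.23) and Lifr (-1.97 and -0.62) lie above the line, and Reg3g (-0.31 and -2.71) lies below it.

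The rest of the pathway was described from gene lists, by counts and medians with no test. With SR9009 the share of all genes called was 0.499% higher and 0.566% lower at 0 h, 0.499% and 1.05% at 4 h, and 2.33% and 4.55% at 48 h. The lists are short, and nothing is read from a count alone. Of 4 gp130 cytokine ligands with a mean of at least 1 FPKM, 1 was lower with SR9009 at 48 h, against 4.55% of all genes. None was called at 0 or 4 h. Lif, the ligand of Lifr, stood at 10.4 FPKM in vehicle and 4.50 FPKM with SR9009 at 48 h, a difference of -1.05 (-2.16 to -0.06) that was not called with a pseudocount of 5 or with equal sums. Lif and its receptor Lifr thus differed in opposite directions at 48 h. At 0 h Lif stood the other way, at 4.05 FPKM (2.02 to 6.08) in vehicle and 8.49 FPKM (5.55 to 11.4) with SR9009. That difference was not called. Lif was higher after 48 h of PE in vehicle (1.18, 0.18 to 2.29), where Lifr was lower. This call was also absent with a pseudocount of 5 and with equal sums. Il6, Il11 and Osm, the genes of interleukin 6, interleukin 11 and oncostatin M, stood under 1 FPKM in all 6 groups. The list median with SR9009 was 0.13, -0.02 and -0.28 at 0, 4 and 48 h, beside -0.01, -0.06 and -0.04 over all genes.

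Among 5 gp130 family receptors, Lifr at 48 h was the only call with SR9009, where 2.33% of all genes were higher. Il6r, the interleukin 6 receptor, stood at 3.09 FPKM in vehicle and 7.03 FPKM with SR9009 at 48 h, a difference of 0.97 (0.57 to 1.38) just under the size required. Its interaction at 48 h was 1.31 (0.53 to 2.10), not called with a pseudocount of 5. The receptor list's medians were 0.01, 0.14 and 0.28 at 0, 4 and 48 h. Of 10 JAK and STAT genes, 0 were called with SR9009 at any time, and their medians were 0.00, -0.14 and 0.18. Of 12 feedback inhibitors, 1 was lower with SR9009 at 0 h, against 0.566% of all genes, and 0 were called at 4 or 48 h. Their medians were -0.07, -0.18 and 0.03. The feedback inhibitor called was Socs2, a relative of Socs3 that restrains growth hormone signalling. It stood at 60.0 FPKM in vehicle and 28.0 FPKM with SR9009 at 0 h, a difference of -1.07 (-1.43 to -0.69), or -0.98 and not called with a pseudocount of 5.

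Of 20 STAT3 and acute phase target genes, 1 was higher with SR9009 at 0 h, against 0.499% of all genes, and 0 were called at 4 h. At 48 h 4 were lower, against 4.55%. The list medians were 0.17, -0.08 and -0.15 at 0, 4 and 48 h. Myc, a growth transcription factor, was higher at 0 h (1.22, 0.79 to 1.66) and lower at 48 h (-2.09, -2.56 to -1.64), the reverse of Reg3b at 48 h. With a pseudocount of 5, neither Myc at 0 h (0.89) nor Fgl2 at 48 h (-0.96) was called. The other 3 genes lower at 48 h were Tnfrsf12a, the receptor of the cytokine TWEAK, with 563 FPKM in vehicle and 107.7 FPKM with SR9009, Fgl2 (-1.34) and the early response gene Ier3 (-1.15). The REG family list holds 4 genes, which are Reg3b, Reg3g, Reg1a and the proposed receptor Extl3. Of these, 2 were higher at 0 h and 1 at 48 h, against 0.499% and 2.33% of all genes, all of them among the 9. The list of secreted and platelet activating factor phospholipases holds 10 genes, among them the receptor Pla2r1 and the non-catalytic subunit Pafah1b1. Of these, 3 were higher at 0 h and 1 each at 4 and 48 h, against 0.499%, 0.499% and 2.33% of all genes. The single call outside the 9 genes was Pla2g2d, another group II secretory enzyme. At 0 h it stood at 1.59 FPKM in vehicle and 5.55 FPKM with SR9009, a difference of 1.34 (0.74 to 1.96). With a pseudocount of 5 that difference was 0.68 and not called. At 4 and 48 h Pla2g2d stood between 0.311 and 1.07 FPKM. It passed the filter of a mean of 1 FPKM only through the SR9009 group at 0 h, so nothing is read from its call. Because both lists hold genes listed for their SR9009 difference, their counts are no independent evidence of a direction. Their medians were 1.03, 0.01 and 0.57 for the REG family list and 0.17, -0.02 and 0.13 for the phospholipase list at 0, 4 and 48 h.

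**Figure D4:**
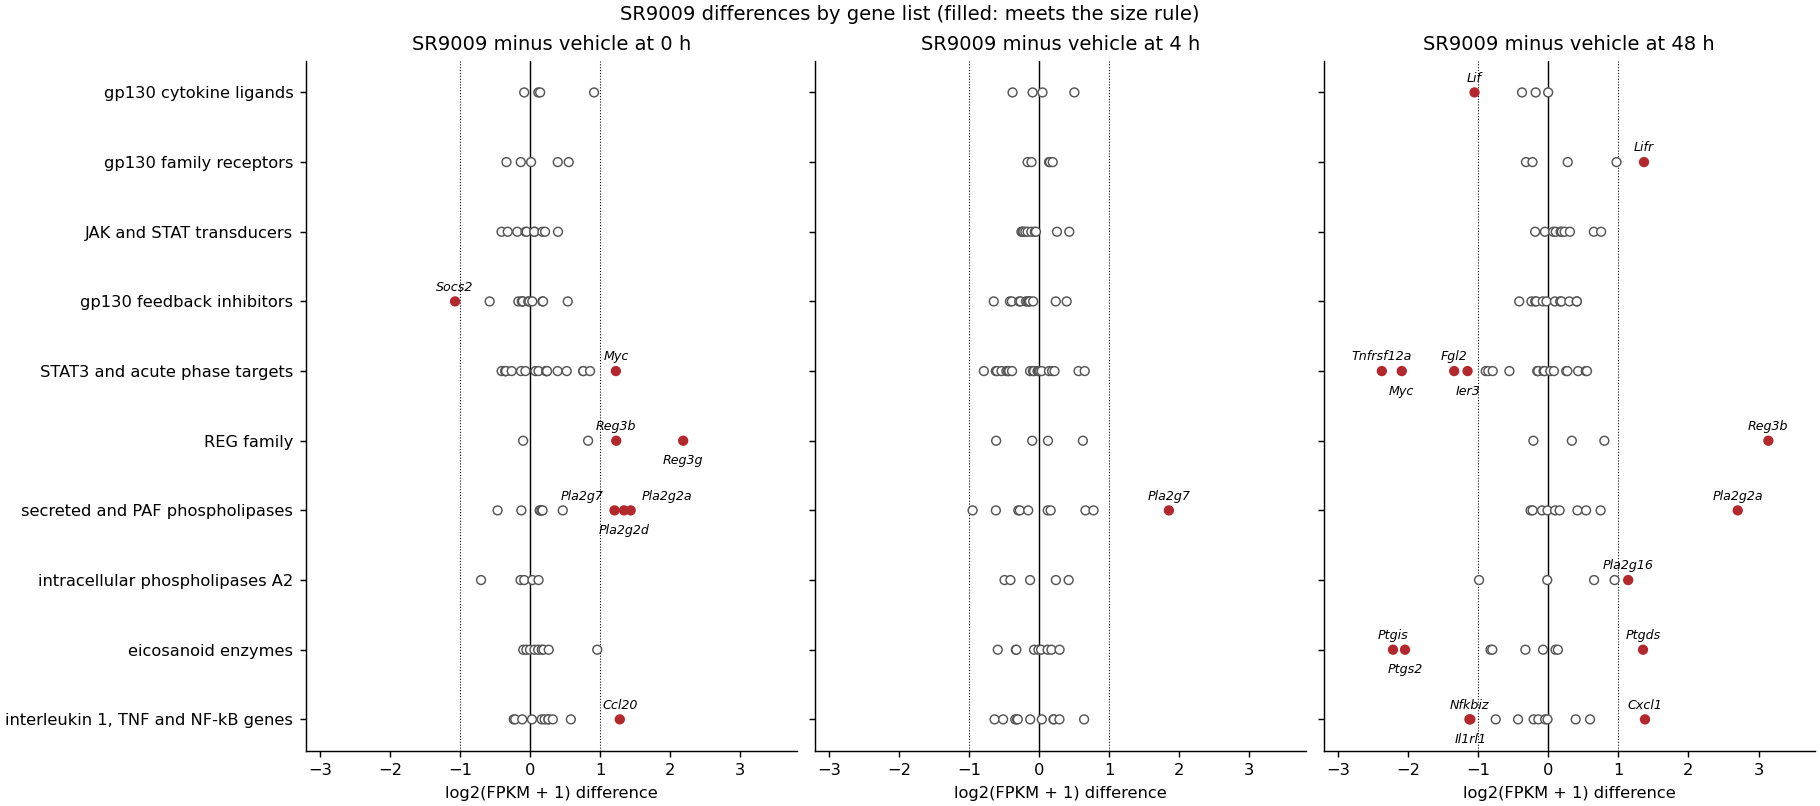
SR9009 minus vehicle on the log2(FPKM + 1) scale (horizontal axes) at 0, 4 and 48 h of phenylephrine for every gene with a mean of at least 1 FPKM in 10 lists (vertical axis). Filled points met the size rule and are named, open points did not, and dotted lines mark -1 and 1. Pla2g7 is the only named gene at 4 h, and at 48 h Lif lies at -1.05 while Lifr lies at 1.37.

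The genes whose 6 group values were most like those of a member were ranked by Pearson's r of log2(FPKM + 1) over the 6 groups, as a description with no p. The 6 points share the same groups, so high values are easily reached. About 1680 genes were compared, without those that have only a placeholder symbol. For Pla2g7 the 5 nearest were Gsta1 (0.990), Gsta5 (0.982), Exosc5 (0.973), Gnb3 (0.970) and Gstp1 (0.963). Gsta1, Gsta5 and Gstp1 encode glutathione transferases, which conjugate glutathione to electrophiles. Gsta1 stood at 28.3, 32.6 and 7.15 FPKM in vehicle and at 100.8, 166.1 and 19.2 FPKM with SR9009. Gstp1 (0.906) and Gsta5 (0.894) were also among the 5 nearest to Reg3g, with Aldh1l2 (0.932), Gnb3 (0.915) and Slc25a33 (0.897). For Reg3b they were Arhgap39 (0.989), Inpp5k (0.985), Trappc6a (0.985), Pts (0.982) and Bcl2l11 (0.980). For Pla2g2a they were Slc22a17 (0.921), Ptgds (0.909), Popdc3 (0.892), Tst (0.884) and Vnn1 (0.874). Osmr was nearest to Polb (0.991), Hnrnpdl (0.989), Fdx1 (0.982), Gfpt2 (0.978) and Taf1d (0.975). Socs3 was nearest to Nudt4 (0.980), Ramp1 (0.969), Col15a1 (0.966), Scn4b (0.965) and Hs6st2 (0.962). Among the 9 genes themselves, r was 0.94 between Osmr and Stat3, 0.92 between Reg3b and Lifr, 0.88 between Reg3g and Pla2g7 and 0.51 between Reg3b and Reg3g.

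**Figure D5:**
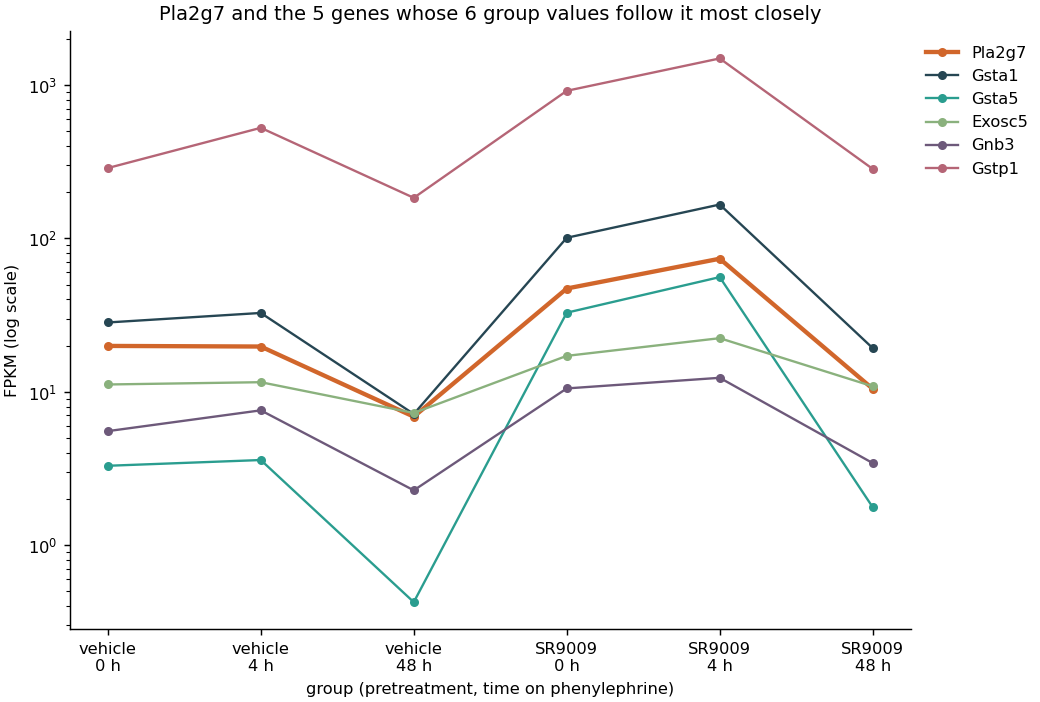
FPKM on a log scale (vertical axis) of Pla2g7 and the 5 genes most like it by Pearson's r, in the 6 groups (horizontal axis). Each point is the authors' value for a group, and lines join the points of a gene only to guide the eye. In all 6 genes the SR9009 group at 4 h is the highest and the vehicle group at 48 h the lowest.

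Because whole cultures were sequenced, fewer cells of a type and less RNA per cell cannot be told apart. Cardiomyocyte markers dominated the cultures, with summed levels between 13652 and 58962 FPKM, although Myh6 lacked an estimate in 3 of the groups and is not in their sums. With SR9009 at 0 h, where Reg3b, Reg3g, Pla2g2a and Pla2g7 were higher, 0 of 9 cardiomyocyte markers with a value lay above vehicle, with a median difference of -0.64. Macrophages are a known source of Pla2g7, and macrophage markers had summed levels of 30.0, 28.7 and 19.2 FPKM in vehicle and 13.1, 12.1 and 12.1 FPKM with SR9009 at 0, 4 and 48 h. Their median difference with SR9009 was -0.75 at 0 h, -0.69 at 4 h and -0.35 at 48 h over 7 markers. Above vehicle lay 0 of them at 0 h, 0 at 4 h and 1 at 48 h. Pla2g7 was called higher at 0 and 4 h, and its relation to these markers was not tested. No macrophage marker was at 0 in every group. Fibroblast markers summed to 2083, 1218 and 1326 FPKM in vehicle and to 1838, 936 and 1312 FPKM with SR9009, with Col1a2 listed at 0 throughout. With SR9009 at 0 h, 0 of 8 fibroblast markers were called, with a median of -0.14. Over 48 h of PE in vehicle, where Lifr, Reg3b and Pla2g7 were lower, 6 of 8 fibroblast markers were lower, with a median of -1.29. Of all genes 3.96% were lower there and 4.87% higher. Cardiomyocyte markers there had a median of 0.15, with 3 of 9 higher and 1 lower. With SR9009 at 48 h, where Lifr, Reg3b and Pla2g2a were higher, 2 of 8 fibroblast markers were higher, with a median of 0.61. The shares of all genes at 48 h were 2.33% higher and 4.55% lower. Of 9 cardiomyocyte markers there, 1 was higher and 2 were lower, with a median of 0.50. Over 48 h of PE with SR9009, where Reg3b, Reg3g, Pla2g7 and Il6st were lower, 6 of 9 cardiomyocyte markers were higher, with a median of 1.22. There 1.26% of all genes were higher and 1.16% lower. In that comparison 0 of 8 fibroblast markers were called, with a median of -0.33. Smooth muscle markers summed to between 878 and 2047 FPKM. With SR9009 at 48 h 3 of 8 smooth muscle markers were lower, against 4.55% of all genes, with a median of -0.86. Over 48 h of PE in vehicle 4 of 8 were higher and 1 was lower, against 4.87% and 3.96%, with a median of 0.54. The part of these markers in the results was not tested. Summed levels of endothelial markers lay between 13.0 and 22.5 FPKM, of mesothelial markers between 13.3 and 31.8 FPKM, of neutrophil markers between 0.882 and 3.02 FPKM and of lymphocyte markers between 0.0143 and 0.236 FPKM. Cd74, which serves antigen presentation, stood at 19.0, 21.9 and 3.34 FPKM in vehicle and at 3.46, 3.42 and 9.77 FPKM with SR9009.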

How the data were processed

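Messenger RNA was sequenced in 18 libraries (6 groups of 3) after a stranded library preparation, per the labels' protocols. The deposited table holds 1 FPKM per gene and group with bounds, a status and an rn6 locus, per the file headers. FastQC, Trim Galore, TopHat and Cuffdiff, with build rn6, appear per the submitters' processing notes. How confident the bounds are and how libraries were scaled is not given in the sources used here, and depth is unknown. The planned limma tests were not run, since they require a value for each library. A rule of size, set for a table with 1 value per group, took their place. Values without status OK, outside their own bounds (172 in all) or listed at 0 were treated as missing. Starts are written counted from 1.

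The 9 genes and all lists were chosen with earlier results of these data known. Named list genes met the size rule with SR9009 or were at most 4 others per list. Genes named for likeness had status OK and a positive value in every group, a mean of at least 5 FPKM and a log2 range of at least 1. Genes with a placeholder symbol (LOC, RGD, AABR or ENSRNOG at its start) were left out of that ranking. One gene of the lists is not reported here and was left out of its list. Marker lists covered 9 cell types or functions. Python 3.11.15, pandas 2.3.3, numpy 2.4.6, Biopython 1.88 and matplotlib 3.10.9 were used. Alternatives were other pseudocounts, scalings, filters and call rules.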

Additional observations from a re-analysis of the deposited data

How the results depend on the processing

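Under the 6 settings that change pseudocount, scaling or filter, 477 differences of the 9 genes were recomputed. A mean of at least 5 FPKM drops Reg3g. Of the 477 differences, 472 stayed within the range given for them and 5 moved beyond it. Direction was compared only for the differences called above, and 0 of those reversed. The call changed for 11 of the 477, with 4 lost and 7 gained. Beside those named above, Reg3g over 4 h of PE in vehicle was called with a pseudocount of 0.1 (1.36), median centring (1.01) and quantile normalization (1.25), against 0.99. Quantile normalization also called Pla2g2a there (1.03) and the interaction of Reg3g at 4 h (-1.69). Lifr over 4 h of PE with SR9009 was called with a pseudocount of 0.1 (-1.04) and equal sums (-1.12).

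Requiring only that the range exclude 0, the members called were 6 in place of 3 at 4 h of PE and 5 in place of 3 at 48 h in vehicle, and 8 in place of 2 and 7 in place of 4 with SR9009. That rule called 14% of all genes higher and 14% lower at 4 h of PE in vehicle, 17.1% and 14.7% at 48 h in vehicle, 11.5% and 16% at 4 h with SR9009, and 9.49% and 9.56% at 48 h with SR9009. For SR9009 against vehicle it called 3.95% of all genes higher and 5.9% lower at 0 h, 4.1% and 10.4% at 4 h and 11.3% and 17.3% at 48 h. A list gene was counted once if called in any of the 3 SR9009 comparisons, in either direction. The share of all genes called in that way was not computed. The shares above are each for 1 comparison and 1 direction, so they are no background for the list counts, from which nothing is read. Under the rule of the range alone, 4 JAK and STAT genes were called in place of 0 and 15 STAT3 targets in place of 4. Genes of the eicosanoid list numbered 5 in place of 3, receptors 4 in place of 1 and feedback inhibitors 4 in place of 1. Interleukin 1, TNF and NF-kB genes numbered 8 in place of 4 and intracellular phospholipases 4 in place of 1. Genes of the secreted phospholipase list numbered 6 in place of 3. With a pseudocount of 5, 0 ligands were called in place of 1, 0 feedback inhibitors and 0 interleukin 1 genes. With a pseudocount of 0.1, 2 receptors, 2 feedback inhibitors and 3 intracellular phospholipases were called. Equal sums gave 0 ligands, 2 receptors and 2 intracellular phospholipases, quantile normalization 2 receptors and 2 intracellular phospholipases, and median centring 2 receptors. With a mean of at least 5 FPKM, 1 REG gene was called in place of 2.

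Equal sums moved the median of all genes to -0.20 and -0.19 at 4 and 48 h of PE in vehicle and to -0.18 and -0.13 with SR9009. It turned the counts of all genes called higher and lower from 287 and 242 to 198 and 409 at 4 h in vehicle, from 507 and 412 to 341 and 668 at 48 h in vehicle, from 190 and 276 to 147 and 417 at 4 h with SR9009, from 131 and 121 to 111 and 165 at 48 h with SR9009, from 243 and 474 to 341 and 391 for SR9009 at 48 h, and from 386 and 555 to 512 and 442 for the interaction at 48 h. For SR9009 at 4 h, 52 and 109 became 68 and 91 with median centring and 61 and 79 with quantile normalization.

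No paired analysis was possible because the table holds 1 value per group, and for the same reason a replicate block and leaving out each replicate were not run. How far the bounds reflect the spread between libraries is not given, and depth is unknown.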

Other observations

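Genes of enzymes that act on the fatty acids released by phospholipases were called in both directions with SR9009 at 48 h. Of 9 genes in the list of eicosanoid enzymes, which also holds the regulator Anxa1, 0 were called at 0 and 4 h. At 48 h 1 was higher and 2 were lower, against 2.33% and 4.55% of all genes. The list medians were 0.11, -0.01 and -0.33 at 0, 4 and 48 h. Ptgds, a prostaglandin D2 synthase, stood at 26.8 FPKM in vehicle and 69.8 FPKM with SR9009, a difference of 1.35 (0.89 to 1.83). Ptgis, the prostacyclin synthase, stood at 115 and 24.1 FPKM, a difference of -2.22 (-2.65 to -1.78). Ptgs2, the inducible cyclooxygenase, stood at 12.5 and 2.28 FPKM, a difference of -2.04 (-2.61 to -1.51). Of 5 intracellular phospholipases A2, 0 were called at 0 and 4 h and 1 was higher at 48 h, against 2.33% of all genes. Their medians were -0.09, -0.13 and 0.65. The gene called was Pla2g16, a lipid-modifying enzyme of adipose tissue. It stood at 25.5 FPKM in vehicle and 57.3 FPKM with SR9009, a difference of 1.14 (0.67 to 1.63).

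Of 11 interleukin 1, TNF and NF-kB genes, 1 was higher with SR9009 at 0 h, against 0.499% of all genes, and 0 were called at 4 h. At 48 h 1 was higher and 2 were lower, against 2.33% and 4.55%. The list medians were 0.21, -0.13 and -0.14 at 0, 4 and 48 h. None of these 4 calls was made with a pseudocount of 5. Ccl20, a chemokine, stood at 5.83 FPKM in vehicle and 15.6 FPKM with SR9009 at 0 h, a difference of 1.28 (0.61 to 2.01). Cxcl1, another chemokine, stood at 1.25 and 4.86 FPKM at 48 h, a difference of 1.38 (0.58 to 2.24). Il1rl1, the receptor of an interleukin 1 family alarmin, and Nfkbiz, a nuclear regulator of NF-kB, were lower at 48 h, by -1.11 (-1.49 to -0.75) and -1.12 (-1.54 to -0.71). Tnf was listed at 0 in all 6 groups.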
